A study of Homo sapiens with 12 samples.

Results

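A short hairpin RNA against FMOD, shRNA3, was compared with a negative-control hairpin (NC) in SCC-15, an established line of human oral squamous cell carcinoma cells. The comparison takes 6 of the 12 RNA-seq libraries of the series, 3 labelled shRNA3 and 3 labelled NC, chosen by the column names of the deposited table of gene counts. The remaining 6 libraries carry other hairpins against FMOD, shRNA1 and shRNA2 (3 libraries each), and serve to estimate the spread and to show where shRNA3 stands apart. All groups share the line, the serum-containing medium and the culture format, and RNA was taken 48 h into the treatment. The labels name no drug or engineered allele beyond the hairpins, and they call the cells control and FMOD-depleted lines without saying whether a line is a clone or a pool. How the hairpins were delivered and their sequences are not given in the sources used here. The labels do not say that libraries 1, 2 and 3 of a group come from separate cultures, so the p-values below measure only the spread between these libraries, which may be technical.

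Short hairpin RNAs are cut in the cell to small interfering RNAs that guide the silencing complex to transcripts of matching sequence. FMOD encodes fibromodulin, a small leucine-rich proteoglycan that binds collagen fibrils and TGF-beta and is made mainly by connective tissue cells. The title of the series places FMOD upstream of the EGF receptor, EGFR, a receptor tyrosine kinase of squamous epithelium whose ligands activate the RAS, MEK and ERK cascade. ERK activity raises immediate early genes such as FOS and EGR1 and the feedback inhibitors of the DUSP and SPRY families. In stratified squamous epithelium the basal layer makes the keratins KRT5 and KRT14 and the upper layers of oral mucosa make KRT4 and KRT13, while KRT7, KRT8, KRT18 and KRT19 belong to simple epithelium.

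The 3 libraries labelled shRNA3 are not alike, and this touches most results. Total counts ranged from 17286934 to 18960414 over these 3 and from 17857766 to 18311598 over the 3 NC libraries. Among 9760 genes with a mean of at least 10 CPM (read counts relative to the TMM-scaled library total, as all CPM values here) over shRNA3, 20 differed at least 2-fold between libraries 1 and 2. Between libraries 1 and 3, 3370 of the 9760 did (34.5%), and between libraries 2 and 3, 3398 (34.8%). Libraries 1 and 2 were thus close to each other and library 3 lay far from both. The direction of this gap depends on the scaling. Of the genes at least 2-fold apart, 1649 were higher and 1721 lower in library 3 than in library 1 with TMM. With raw library totals these were 2705 and 768. The TMM factors were 0.771, 0.795 and 1.06 for shRNA3 libraries 1, 2 and 3. Pearson's r of log2(CPM + 1) over the 17532 genes tested, which are not independent replicates, was 0.995 between libraries 1 and 2, and 0.919 and 0.916 between library 3 and these. Library 3 was closer to the shRNA2 libraries (r 0.988 with each) and to the shRNA1 libraries (0.979 to 0.982) than to its own group. All 3 were farther from the NC libraries (0.829 to 0.852). The 1000 genes with the most counts held 59.7%, 59.2% and 48.9% of the counts in shRNA3 libraries 1, 2 and 3, and 49.1% to 49.9% in NC. Gene lists are therefore given below with a median for each shRNA3 library, and genes with the level in each.

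**Figure D1:**
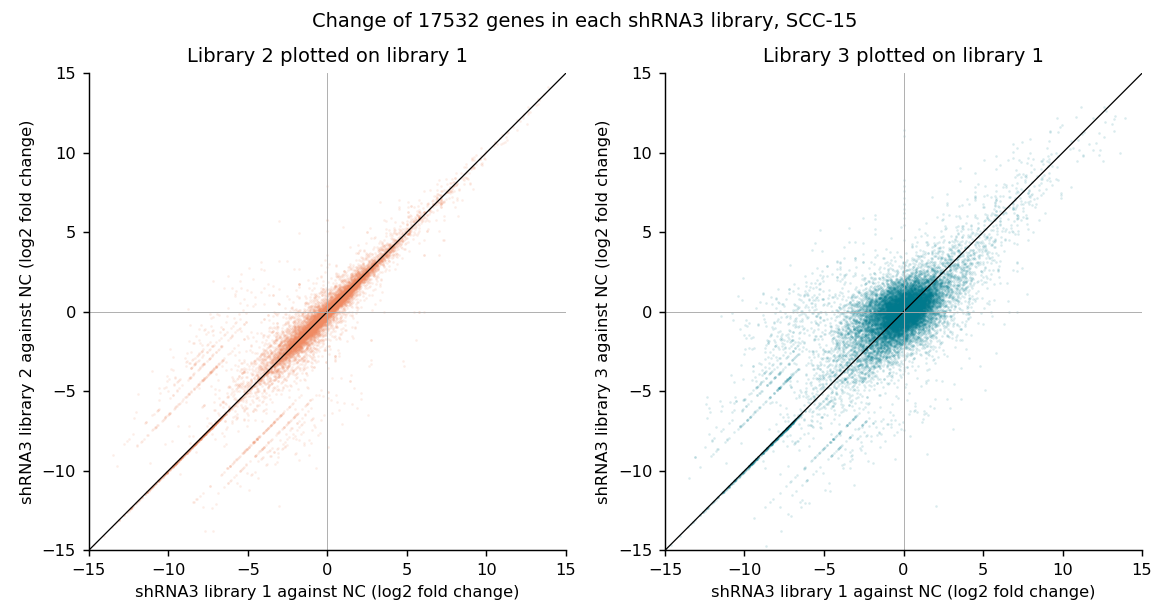
Log2 fold change against NC of the 17532 tested genes, with shRNA3 library 2 (left) and library 3 (right) on the vertical axis and library 1 on the horizontal axis; each point is a gene and the diagonal marks equal change. Library 2 follows the diagonal, and library 3 scatters widely about it.

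FMOD itself was barely read. NC libraries 1, 2 and 3 held 2, 2 and 3 FMOD counts, and each shRNA3 library held 0. A count of 0 allows up to 3 counts, or 0.222, 0.219 and 0.149 CPM in shRNA3 libraries 1, 2 and 3. Both groups are thus at or under 3 counts per library, no fold change can be given, the gene did not pass the filter for testing, and the depletion that the labels name was not detectable at this depth.

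More than 1 gene in 2 differed between shRNA3 and NC. By edgeR's quasi-likelihood F test, 9457 of 17532 genes (53.9%) had an adjusted p-value under 0.05. Of these, 4622 rose (26.4% of those tested) and 4835 fell (27.6%), and 6915 changed at least 2-fold. Against NC alone, library 1 gave 11512 genes (65.7%), library 2 gave 11619 (66.3%) and library 3 gave 10638 (60.7%). A single library has no spread of its own, so these 3 fits assume that it varies like the other groups. Library 1 gave 29.4% of tested genes higher and 36.3% lower, library 2 29.5% and 36.8%, and library 3 29.4% and 31.2%. The 3 comparisons share the NC libraries, so their values stand side by side and no count of genes called alike is given. For 10077 tested genes (57.5%) the shRNA3 and NC libraries did not overlap. Of those called, 628 did overlap.

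Many genes went from clearly read to nearly absent. In 368 genes every NC library had at least 50 counts and every shRNA3 library at most 3, and 260 of them were also at 3 or fewer in every shRNA1 and shRNA2 library. The reverse held for 70 genes, 57 of them also at 50 or more in every shRNA1 and shRNA2 library. For scale, 17532 genes were tested. These limits are on counts and are not scaled by the TMM factors, 0.771, 0.795 and 1.06 for shRNA3 and 1.10 to 1.11 for NC. Unlike effective depth thus enters the numbers. In bulk RNA, fewer cells of a type and less RNA per cell cannot be told apart.

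The genes that rose most, among those with at least 10 counts in all 6 libraries, were led by a non-coding RNA and by keratins. H19 (ENSG00000130600, chromosome 11, 1995176 to 2001470, minus strand in GRCh38) is an imprinted long non-coding RNA of fetal tissue and tumours, and it was read at 3.33, 4.88 and 4.82 CPM in NC libraries 1, 2 and 3 and 14021, 13940.4 and 6571 CPM in shRNA3 libraries 1, 2 and 3. It was high in every shRNA3 library, less so in library 3, and the fold was 2646 (log2 11.37, SE 0.42, adjusted p = 2.4e-08). KRT19 (ENSG00000171345, chromosome 17, 41523617 to 41528308, minus strand), a simple-epithelial keratin, was at 0.909, 0.591 and 1.01 CPM in NC and 478, 493 and 587 CPM with shRNA3, 615-fold higher. The 3 shRNA3 libraries were close to one another and far above NC. KRT7 (ENSG00000135480, chromosome 12, 52232520 to 52252186, plus strand), another such keratin, was at 16.5, 12.4 and 11.1 CPM in NC and 729, 826 and 2109.7 CPM with shRNA3, 91.6-fold higher. KRT81 (ENSG00000205426, chromosome 12, 52285913 to 52291534, minus strand), a hair keratin, was at 6.06, 4.68 and 4.16 CPM in NC and 2624, 2549 and 1566 CPM with shRNA3, 452-fold higher. Library 3 was highest of its group for KRT7 and lowest for KRT81, whose close relative KRT86 may share its reads.

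Other genes among these 8 encode membrane and surface proteins, and 1 encodes a mesenchymal filament. VIM (ENSG00000026025, chromosome 10, 17228259 to 17237593, plus strand), the intermediate filament vimentin of mesenchymal cells, was at 3.43, 3.30 and 3.04 CPM in NC and 818, 784 and 479 CPM with shRNA3, 212-fold higher. AQP3 (ENSG00000165272, chromosome 9, 33441154 to 33447633, minus strand), a channel for water and glycerol, was at 6.51, 5.71 and 5.43 CPM in NC and 1065, 1097 and 543 CPM with shRNA3, 153-fold higher. MSLN (ENSG00000102854, chromosome 16, 760762 to 768865, plus strand), the surface protein mesothelin, was at 4.09, 3.60 and 4.92 CPM in NC and 592, 557 and 253 CPM with shRNA3, 111-fold higher. For these 3 genes library 3 was lowest in the shRNA3 group and still far above every NC library. ALPP (ENSG00000163283, chromosome 2, 232378534 to 232382889, plus strand), placental alkaline phosphatase, was at 3.03, 2.66 and 1.62 CPM in NC and 202, 204 and 230.2 CPM with shRNA3, 86.7-fold higher, at a like level in the 3 libraries. Its neighbour ALPG is a near copy, so reads may be split between them. Adjusted p-values of the 8 genes ran from 4.7e-09 to 7.22e-07.

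The 8 genes that fell most, by the same rule, included SPARC, ICAM1 and MMP14. SPARC (ENSG00000113140, chromosome 5, 151661096 to 151687165, minus strand), a matrix protein that binds collagen, was at 748, 686 and 742 CPM in NC libraries 1, 2 and 3 and 0.816, 2.62 and 0.745 CPM in shRNA3 libraries 1, 2 and 3. Every shRNA3 library was at a few CPM or less, 533-fold lower in the group (log2 -9.06, SE 0.48, adjusted p = 1.54e-07). ICAM1 (ENSG00000090339, chromosome 19, 10270835 to 10286615, plus strand), an adhesion receptor for leukocytes, was at 513, 586 and 607 CPM in NC and 1.63, 2.48 and 3.48 CPM with shRNA3, 220.4-fold lower. MMP14 (ENSG00000157227, chromosome 14, 22836557 to 22849027, plus strand), a membrane-bound collagenase that activates MMP2, was at 481, 392 and 387 CPM in NC and 2.74, 3.06 and 0.497 CPM with shRNA3, 208-fold lower. These genes were abundant in NC and hardly read in any shRNA3 library. PTK7 (ENSG00000112655, chromosome 6, 43076268 to 43161719, plus strand), a pseudokinase receptor of WNT signalling, was at 228, 203 and 188 CPM in NC and 2.37, 2.55 and 1.29 CPM with shRNA3, 101-fold lower. PROM2 (ENSG00000155066, chromosome 2, 95274453 to 95291308, plus strand), a membrane protein of cell protrusions, was at 245, 227.0 and 249.9 CPM in NC and 3.71, 3.50 and 1.19 CPM with shRNA3, 87.8-fold lower. NDRG2 (ENSG00000165795, chromosome 14, 21016763 to 21070872, minus strand), a differentiation-related gene whose locus overlaps other genes, was at 207, 201 and 199 CPM in NC and 1.78, 2.26 and 0.695 CPM with shRNA3, 132-fold lower. In these 3, library 3 was the lowest of all. VWA1 (ENSG00000179403, chromosome 1, 1434861 to 1442882, plus strand), a matrix protein, was at 63.4, 69.9 and 55.3 CPM in NC and 1.04, 1.02 and 0.894 CPM with shRNA3, 63.8-fold lower and near level in the 3 libraries. PDZK1IP1 (ENSG00000162366, chromosome 1, 47183593 to 47191044, minus strand), a membrane protein of epithelia, was at 126, 115 and 126 CPM in NC and 2.37, 2.62 and 0.497 CPM with shRNA3, 68.8-fold lower. Adjusted p-values of these 8 genes ran from 2.5e-08 to 3.64e-06.

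**Figure D2:**
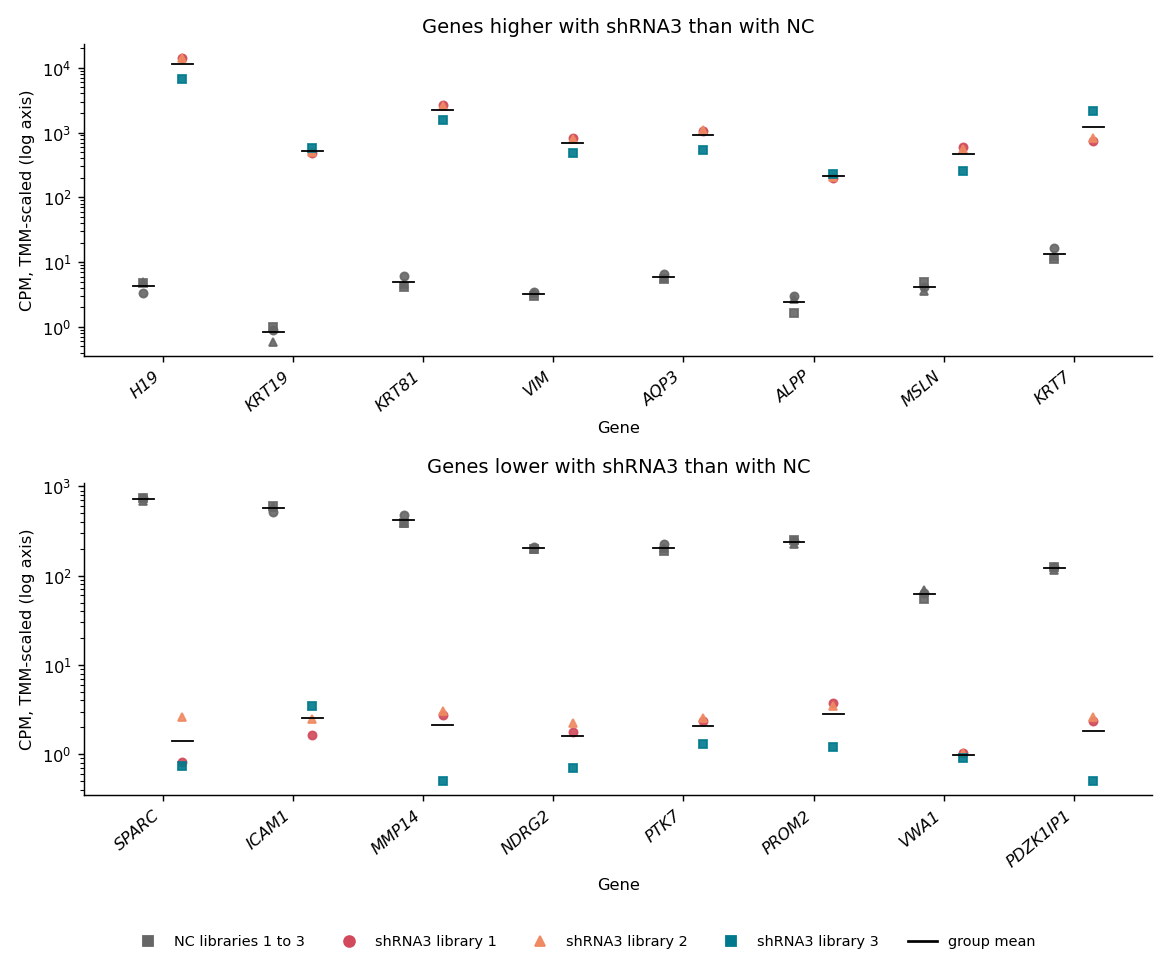
CPM on a log axis of the 8 genes that rose most (top) and the 8 that fell most (bottom) with shRNA3 among genes with at least 10 counts in all 6 libraries; points are single libraries of NC and shRNA3 and bars are group means. For every gene the 3 shRNA3 points lie on 1 side of the 3 NC points, which the choice of the genes required. They were ranked by the shRNA3 library that changed least.

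The gene lists that follow were tested gene by gene in the fit over all genes, and a count of changed members is to be read against the 53.9% of all tested genes that were called, 26.4% higher and 27.6% lower. Counts for a single library are to be read against the shares of that library given above. The median log2 change of all tested genes was -0.03 for the group and -0.19, -0.18 and -0.06 for libraries 1, 2 and 3. Of 184 genes named in the text and called, leaving out shRNA3 library 3 moved the fold change of 20 by over 1.5 times, and leaving out any other single NC or shRNA3 library moved at most 2. Where values of a gene are given below, the order is libraries 1, 2 and 3 of each group, and the library medians of a list are those of shRNA3 libraries 1, 2 and 3 in that order.

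A keratin list that holds KRT7, KRT8, KRT18, KRT19, KRT20 and KRT23 of simple epithelium and the hair keratins KRT81 and KRT86 rose in each of its 7 tested members. Its median log2 change was 2.65, with library medians of 2.91, 2.97 and 1.82. KRT20 did not pass the filter, and KRT23 was not called without NC library 3 or shRNA3 library 2 (adjusted p = 0.0708 and 0.0566). KRT8 was at 876, 909 and 829 CPM in NC and 2165, 2186 and 2986 CPM with shRNA3. Its partner KRT18 was at 575, 599 and 561 CPM in NC and 978, 1052 and 1594 CPM with shRNA3. Both were higher in each shRNA3 library than in any NC library, and highest in library 3. KRT5, the basal type II keratin of stratified epithelium, was at 1013, 1049 and 965 CPM in NC and 84.8, 90.3 and 49.7 CPM with shRNA3, 13.5-fold lower (adjusted p = 9.91e-07). KRT14, its type I partner, was at 6.51, 6.65 and 9.59 CPM in NC and 230.5, 192 and 25.1 CPM with shRNA3, 19.63-fold higher (adjusted p = 0.000155). The partners thus moved in opposite directions, and within shRNA3 library 3 was lowest for both. The basal keratinocyte list as a whole had 6 of 13 higher and 2 lower, with a median of 0.38 that turns to -0.04 with raw library totals. Its library medians were 0.80, 0.71 and -0.12, and library 3 alone called 3 higher and 5 lower. TP63, the transcription factor of basal cells, was at 163, 175 and 156 CPM in NC and 66.4, 51.5 and 124 CPM with shRNA3 (log2 -1.03, adjusted p = 0.00483). All 3 libraries were below NC, library 3 least. KRT15, another basal keratin, was at 15.6, 20.1 and 19.02 CPM in NC and 283, 298 and 67.4 CPM with shRNA3. ITGB4, the integrin of hemidesmosomes, was at 417, 433 and 376 CPM in NC and 2000.3, 1685 and 606 CPM with shRNA3. For both, libraries 1 and 2 were higher than library 3, and all 3 exceeded NC.

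Of 24 suprabasal genes, 11 were read well enough to test, of which 6 rose and 1 fell (median 1.20, library medians 1.23, 1.70 and 1.33). KRT13, the mucosal suprabasal keratin, had no more than 4 counts in any NC library and stood at 1510.0, 1324 and 702 CPM with shRNA3. Its partner KRT4 was at or under 3 counts in each NC library and at 1.41, 1.38 and 2.23 CPM, at least 11.1-fold higher. The partners therefore stood at very different levels. KRT16, of activated keratinocytes, was at 11.4, 8.86 and 10.2 CPM in NC and 83.4, 80.5 and 27.9 CPM with shRNA3. KRT10, of cornifying epithelium, was at 19.64, 25.6 and 21.1 CPM in NC and 107, 134 and 28.4 CPM with shRNA3. Library 3 was lowest of its group for KRT13, KRT16 and KRT10 and highest for KRT4. Loricrin (LORICRIN), involucrin (IVL) and the SPRR genes of the cornified envelope were too little read to be tested.

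Junction genes did not move as a block. Of 14 tight junction genes 2 rose and 6 fell, with a median of -0.17 and library medians of -0.05, -0.05 and -0.72. Library 3 alone called 1 higher and 11 lower, whereas library 1 called 6 and 5 and library 2 called 5 and 6. The libraries thus gave different counts in both directions. CLDN1, a claudin of squamous epithelium, was at 497, 511 and 521 CPM in NC and had 0 counts in each shRNA3 library, at least 2590.5-fold lower. CLDN4, another claudin, was at 241, 223 and 224 CPM in NC and 1351, 1211 and 158 CPM with shRNA3. TJP1, the scaffold ZO-1, was at 108, 91.8 and 88.7 CPM in NC and 24.0, 24.4 and 60.4 CPM with shRNA3, 2.64-fold lower (adjusted p = 0.00206). For CLDN4, libraries 1 and 2 were above NC and library 3 below it, whereas CLDN1 and TJP1 were lower in all 3. Of 10 desmosome genes 5 rose and 2 fell, with library medians of 1.05, 0.90 and 0.28. JUP (plakoglobin) was at 532, 503 and 479 CPM in NC and 2058, 1916 and 685 CPM with shRNA3. DSP (desmoplakin) was at 325, 265 and 276 CPM in NC and 626, 571 and 814 CPM with shRNA3. Both rose, JUP least in library 3 and DSP most. PKP1 (plakophilin 1) was at 17.32, 18.6 and 18.2 CPM in NC and 4.97, 4.52 and 1.64 CPM with shRNA3. DSC3, a desmosomal cadherin, was at 33.2, 28.1 and 33.2 CPM in NC and 6.08, 5.32 and 8.99 CPM with shRNA3. Both were lower in every shRNA3 library.

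Of 13 regulators and markers of epithelial identity 6 fell and 3 rose, with a median of -0.36 and library medians of -0.55, -0.57 and -1.56. CDH1, E-cadherin, was at 336, 322 and 310.4 CPM in NC and 79.4, 74.5 and 44.4 CPM with shRNA3, 4.89-fold lower (adjusted p = 3.42e-06). GRHL2, a transcription factor of epithelia, was at 36.6, 34.4 and 35.7 CPM in NC and 0, 0 and 0.844 CPM with shRNA3. EHF, an ETS factor of epithelia, was at 652, 560.5 and 608 CPM in NC and 11.9, 9.91 and 21.01 CPM with shRNA3. The 3 genes were lower in all 3 libraries, and GRHL2 was close to unread. RAB25, a GTPase of epithelial recycling endosomes, had 0 counts in each shRNA3 library against 24.4, 21.2 and 23.1 CPM in NC, at least 116-fold lower. GRHL3, of the same family as GRHL2, was at 0.101, 0.295 and 0.304 CPM in NC and 10.1, 5.76 and 4.87 CPM with shRNA3. ELF3, an ETS factor like EHF, was at 94.1, 88.2 and 107 CPM in NC and 475, 446 and 131 CPM with shRNA3. GRHL3 and ELF3 rose while their relatives fell, ELF3 mainly in libraries 1 and 2.

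Mesenchymal genes also divided, with 7 of 13 higher and 5 lower, with library medians of 0.84, 0.79 and 0.35. VIM, the transcription factors ZEB1 and ZEB2 and the repressor SNAI1 were among those that rose. ZEB1 was at 0.606, 0.394 and 0.457 CPM in NC and 1.93, 1.97 and 4.27 CPM with shRNA3. ZEB2 was at 0.707, 0.492 and 0.660 CPM in NC and 2.15, 4.37 and 4.17 CPM with shRNA3. SNAI1 was at 10.4, 9.11 and 10.9 CPM in NC and 63.7, 65.3 and 10.9 CPM with shRNA3. ZEB1 and ZEB2 were higher in each library, and SNAI1 in libraries 1 and 2, with library 3 level with NC. TWIST2, a factor of mesenchyme, had 0 counts in every NC library and was at 5.71, 4.37 and 5.96 CPM, at least 35.5-fold higher. CDH2, N-cadherin, was at 29.6, 24.3 and 23.4 CPM in NC and 3.63, 2.70 and 6.11 CPM with shRNA3. TNC, the matrix protein tenascin C, was at 548, 450.0 and 415 CPM in NC and 50.2, 48.9 and 27.02 CPM with shRNA3. CDH2 and TNC fell in the same libraries in which ZEB1 and ZEB2 rose. FN1, fibronectin, was at 174, 149 and 142 CPM in NC and 96.4, 89.6 and 40.03 CPM with shRNA3, lowest in library 3, and was not called without NC library 1 (adjusted p = 0.0681).

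EGFR (ENSG00000146648, chromosome 7, 55019021 to 55211628, plus strand, overlapped on the opposite strand by EGFR-AS1) fell in each library. It was read at 1372, 1271 and 1283 CPM in NC libraries 1, 2 and 3 and 134, 109 and 253 CPM in shRNA3 libraries 1, 2 and 3, with a log2 change of -2.98 (SE 0.27, adjusted p = 5.44e-06). The 3 shRNA3 libraries were far below NC, library 3 least so. Of the 13 EGF-family ligands and ERBB receptors tested, 6 rose and 5 fell, the median being -0.38 and the library medians 0.15, -0.11 and -0.24. ERBB3, a partner receptor of EGFR and ERBB2, was at 62.1, 46.5 and 53.7 CPM in NC and 3.63, 3.94 and 3.82 CPM with shRNA3 (adjusted p = 1.34e-05). ERBB2 was at 101, 92.8 and 97.3 CPM in NC and 60.1, 54.3 and 67.0 CPM with shRNA3 (adjusted p = 0.00104). Both fell alike in the 3 libraries, ERBB3 much further. AREG (amphiregulin), a ligand of EGFR, was at 33.7, 33.1 and 31.1 CPM in NC and 324, 312 and 73.0 CPM with shRNA3. HBEGF was at 29.03, 24.1 and 24.0 CPM in NC and 133, 136 and 21.8 CPM with shRNA3. TGFA was at 62.2, 68.7 and 64.8 CPM in NC and 109.8, 105 and 70.5 CPM with shRNA3. All 3 ligands rose in the group, but in library 3 HBEGF was below NC and TGFA barely above it. TGFA was not called without NC library 1 or 3 (adjusted p = 0.0605 and 0.0524). EPGN (epigen) was unread in NC (0 counts) and at 4.08, 5.68 and 17.6 CPM with shRNA3, at least 60.7-fold higher. EREG (epiregulin) was at 8.43, 12.1 and 13.4 CPM in NC and 0.0742, 0.0729 and 0.546 CPM with shRNA3, 42.9-fold lower. Ligands of the family thus changed in both directions.

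Of 12 ERBB inhibitors and adaptors, 2 rose and 2 fell, with library medians of 0.10, 0.09 and -0.05. Their median of 0.09 turns to -0.02 with upper-quartile factors and to -0.25 with raw totals. ERRFI1 (MIG6), an EGFR inhibitor that EGFR signalling itself raises, was at 51.0, 49.8 and 53.4 CPM in NC and 204, 219.7 and 81.6 CPM with shRNA3, 3.27-fold higher (adjusted p = 0.000425). It was above NC in each library, least in library 3. GAB1, a docking protein, was at 9.85, 8.47 and 10.6 CPM in NC and 2.22, 1.97 and 6.85 CPM with shRNA3, farthest below NC in libraries 1 and 2. It was not called without shRNA3 library 1 or 2 (adjusted p = 0.0574 and 0.0536). GRB2, SHC1, SOS1 and CBL did not pass, with log2 changes of -0.05, 0.08, -0.45 and 0.08.

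Of 17 genes known to respond to ERK activity 13 rose and 4 fell, with a median of 1.63 for the group and 1.83, 1.65 and 0.68 for libraries 1, 2 and 3. Library 3 alone called 9 higher and 2 lower. The gap to NC was thus smaller in library 3. DUSP6, an ERK phosphatase, was at 31.3, 56.9 and 52.6 CPM in NC and 135, 121 and 130.4 CPM with shRNA3. DUSP4, another, was at 49.9, 54.5 and 42.9 CPM in NC and 232, 221 and 207 CPM with shRNA3. DUSP5, of the same family, was at 79.7, 97.0 and 83.2 CPM in NC and 1379, 1249 and 85.6 CPM with shRNA3. DUSP6 and DUSP4 were up alike in the 3 libraries, and DUSP5 only in libraries 1 and 2, with library 3 inside the NC range. SPRY4, a feedback inhibitor of receptor signalling, was at 10.4, 9.46 and 11.3 CPM in NC and 72.3, 70.5 and 33.9 CPM with shRNA3. ETV4, an ETS factor, was at 27.9, 33.7 and 30.5 CPM in NC and 162, 161 and 84.3 CPM with shRNA3. PHLDA1, an early response gene, was at 81.9, 116 and 101 CPM in NC and 1344, 1213 and 370.3 CPM with shRNA3. These 3 were higher in each library, least in library 3. EGR1, an immediate early transcription factor, was at 74.6, 121 and 117 CPM in NC and 5.56, 4.52 and 7.30 CPM with shRNA3, 17.9-fold lower (adjusted p = 6.21e-07). CCND1 (cyclin D1) was at 267, 277 and 279 CPM in NC and 139, 131 and 242 CPM with shRNA3. EGR1 was lower in all 3 libraries to a like extent and CCND1 mainly in libraries 1 and 2. CCND1 was not called when any single NC or shRNA3 library was left out other than shRNA3 library 3 (adjusted p from 0.0663 to 0.147).

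Immediate early genes set library 3 apart. Of 17 tested, 11 rose and 2 fell in the group, with a median of 1.39. The medians were 1.77 and 1.80 in libraries 1 and 2 and -0.12 in library 3, where 5 were called higher and 5 lower. Library 3 therefore did not share the rise of the list. FOSL1, an AP-1 subunit, was at 84.6, 113 and 99.7 CPM in NC and 437, 443 and 91.6 CPM with shRNA3. JUNB, another, was at 249, 293 and 295 CPM in NC and 1226, 1283 and 256 CPM with shRNA3. In both, library 3 was inside the NC range. NR4A1, an orphan nuclear receptor, was at 37.1, 32.8 and 32.5 CPM in NC and 283, 263 and 14.2 CPM with shRNA3. JUN was at 193, 169 and 162 CPM in NC and 401, 422 and 82.1 CPM with shRNA3. In both, library 3 was below every NC library while libraries 1 and 2 were above. NR4A1 was not called without any one of the NC libraries (adjusted p from 0.052 to 0.0604), and JUN was not called in the group (adjusted p = 0.162). KLF4, a factor of epithelial differentiation, was at 25.9, 22.9 and 18.7 CPM in NC and 139, 127 and 46.8 CPM with shRNA3. EGR2 was at 3.74, 1.97 and 3.15 CPM in NC and 0, 0 and 0.199 CPM with shRNA3. KLF4 was higher in all 3 libraries and EGR2 lower in all 3.

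Among other receptor tyrosine kinases 6 of 21 rose and 9 fell (library medians -0.29, -0.22 and -0.19), and FGF receptors went opposite ways. FGFR1 was at 0.202, 0.148 and 0.507 CPM in NC and 53.3, 54.7 and 32.2 CPM with shRNA3, 160.3-fold higher. FGFR3 was at 10.2, 11.4 and 10.6 CPM in NC and 190.3, 182 and 129 CPM with shRNA3, 15.6-fold higher. The shRNA3 libraries were all far above NC for both. FGFR2 was at 36.5, 34.7 and 33.1 CPM in NC and 0.593, 1.09 and 0.248 CPM with shRNA3, 55.4-fold lower. FGFR4 was at 78.9, 76.0 and 72.8 CPM in NC and 16.1, 16.3 and 9.88 CPM with shRNA3, 5.40-fold lower. These 2 were lower in all 3 libraries, most in library 3. MET, the receptor of hepatocyte growth factor, was at 499, 447 and 459 CPM in NC and 288, 274 and 178 CPM with shRNA3. AXL, the receptor of GAS6, was at 391, 344 and 363 CPM in NC and 197, 210.4 and 90.5 CPM with shRNA3. MST1R, the relative of MET that binds macrophage-stimulating protein, was at 17.4, 22.1 and 18.4 CPM in NC and 138, 129 and 114 CPM with shRNA3. MET and AXL fell and MST1R rose.

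**Figure D3:**
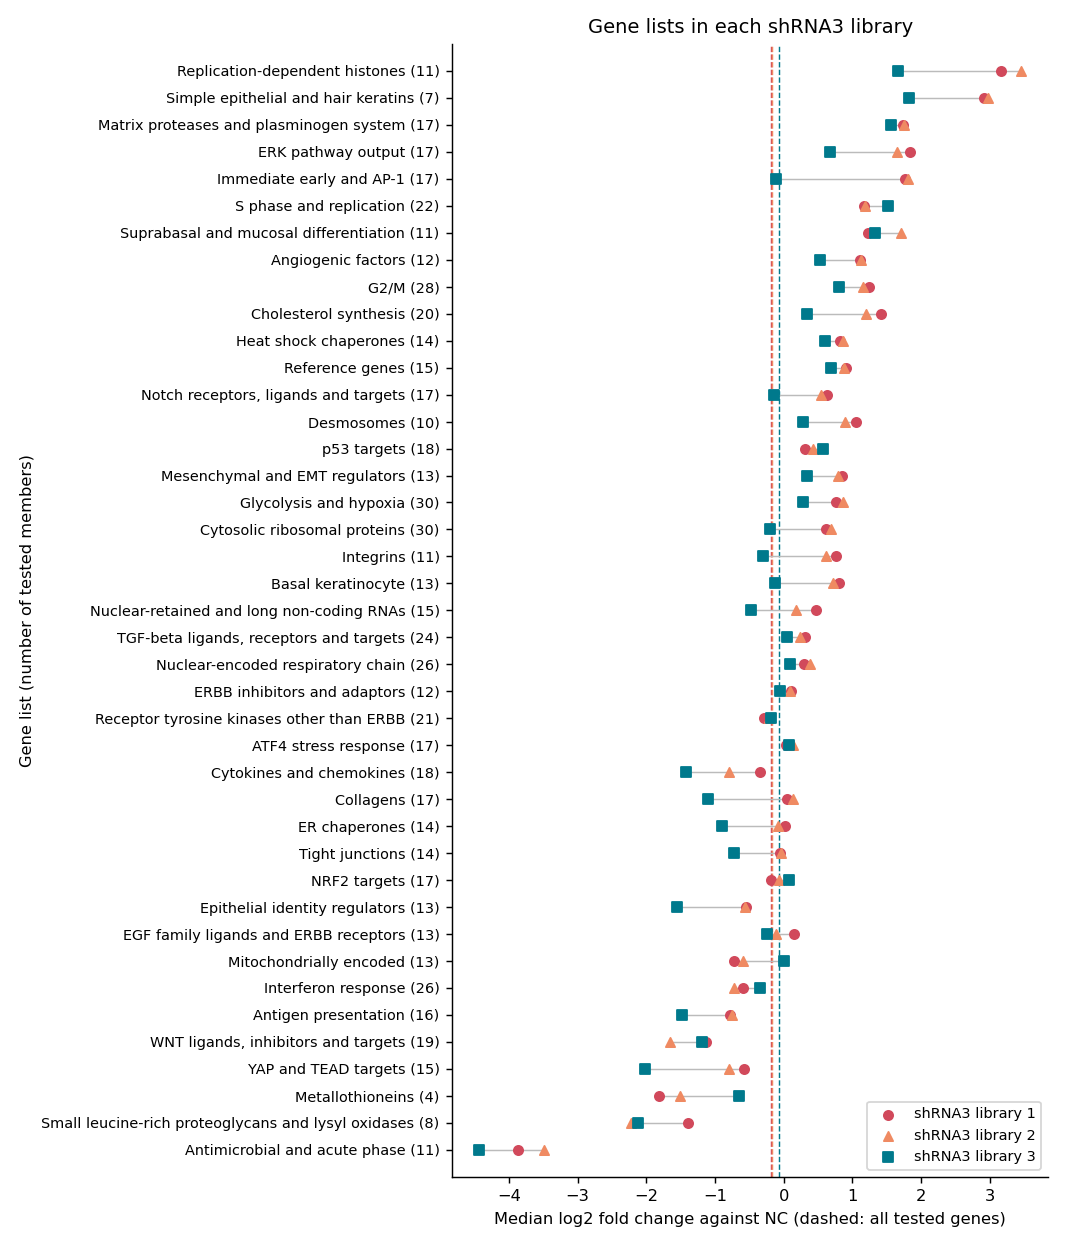
Median log2 fold change against NC of the tested members of each of the 41 gene lists, 1 point per shRNA3 library, with dashed lines at the medians of all tested genes and the number of tested members in brackets. Library 3 lies left of libraries 1 and 2 in 30 lists, as for the immediate early genes (1.77 and 1.80 against -0.12), and right of both in 7, as for S phase (1.52 against 1.17 and 1.19). These library medians are given with TMM scaling only, and small gaps between libraries may change side with raw library totals.

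Of 17 small leucine-rich proteoglycans and lysyl oxidases 8 were tested, 4 fell and 1 rose, with library medians of -1.40, -2.22 and -2.12. BGN (biglycan), a relative of fibromodulin, was at 9.34, 8.22 and 8.02 CPM in NC and 0.297, 0 and 0.149 CPM with shRNA3. LUM (lumican), of the same class as fibromodulin, was at 1.62, 1.13 and 0.710 CPM in NC and had 0 counts in each shRNA3 library, at least 5.86-fold lower. Both were close to unread with shRNA3. LOXL4, which cross-links collagen, was at 46.7, 41.1 and 55.4 CPM in NC and 2.52, 3.79 and 1.34 CPM with shRNA3. DCN (decorin), OGN and PRELP were too little read to be tested. Of 17 collagens 5 rose and 7 fell in the group, with library medians of 0.05, 0.13 and -1.10. Library 1 alone called 6 higher and 6 lower, library 2 7 and 7, and library 3 1 and 11. COL6A2, of microfibrillar collagen, was at 237, 241 and 232 CPM in NC and 34.5, 40.01 and 17.28 CPM with shRNA3. COL7A1, of anchoring fibrils, was at 56.2, 70.3 and 61.0 CPM in NC and 269.9, 293 and 67.6 CPM with shRNA3. COL4A6, a basement membrane chain, was at 6.21, 6.21 and 6.75 CPM in NC and 53.5, 49.1 and 34.3 CPM with shRNA3. COL6A2 was lower and COL4A6 higher in all 3 libraries, and COL7A1 was higher in libraries 1 and 2, with library 3 inside the NC range.

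Genes of the TGF-beta system changed in both directions. Of 24, 9 rose and 8 fell, with a median of 0.29 that turns to -0.11 with raw totals and library medians of 0.31, 0.24 and 0.05. TGFB2, a ligand, was at 80.7, 43.2 and 55.4 CPM in NC and no shRNA3 library held more than 2 counts, at least 304-fold lower. TGFB1, another ligand, was at 79.6, 73.4 and 75.2 CPM in NC and 440.1, 445 and 101 CPM with shRNA3. TGFB1 rose where TGFB2 fell, and it was raised less in library 3. INHBA, the subunit of activin A, was at 38.8, 33.4 and 38.4 CPM in NC and 0.593, 0.947 and 6.70 CPM with shRNA3. THBS1 (thrombospondin 1), which activates latent TGF-beta, was at 969, 812 and 726 CPM in NC and 42.4, 36.6 and 18.4 CPM with shRNA3. Both fell in each library. SMAD7, the inhibitory SMAD, was at 4.85, 4.92 and 4.21 CPM in NC and 73.9, 82.0 and 27.02 CPM with shRNA3. ID1, a target of BMP signalling, was at 37.2, 64.5 and 63.2 CPM in NC and 729, 699.7 and 666 CPM with shRNA3. SMAD7 and ID1 were higher in each of the 3 libraries, ID1 to a like extent.

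Proteases of the matrix changed in both directions, 9 of 17 higher and 3 lower, with library medians of 1.74, 1.75 and 1.56. PLAU (urokinase) was at 469, 495 and 523 CPM in NC and 13.7, 18.6 and 7.50 CPM with shRNA3. PLAUR, its receptor, was at 23.4, 24.0 and 19.8 CPM in NC and 429.8, 399.8 and 88.8 CPM with shRNA3. The enzyme fell, as MMP14 did, and its receptor rose. MMP1, an interstitial collagenase, was at 1.46, 1.67 and 2.89 CPM in NC and 69.8, 74.8 and 34.6 CPM with shRNA3. TIMP1, an inhibitor of these enzymes, was at 52.3, 58.2 and 55.6 CPM in NC and 381, 408 and 204 CPM with shRNA3. Both were above NC in all 3 libraries. Among 11 integrins 4 rose and 3 fell, with library medians of 0.76, 0.61 and -0.31. ITGAV, a subunit of receptors for latent TGF-beta, was at 214, 193 and 205 CPM in NC and 68.7, 60.6 and 39.4 CPM with shRNA3. ITGB6, its epithelial partner, was at 39.3, 33.8 and 36.8 CPM in NC and 1.71, 1.09 and 0.596 CPM with shRNA3. Both fell, ITGB6 to about 1 CPM. Of 12 angiogenic factors 7 rose and 2 fell, with library medians of 1.11, 1.12 and 0.52. ANGPTL4 was at 1.62, 1.23 and 0.660 CPM in NC and 45.9, 52.8 and 13.4 CPM with shRNA3. NRP2, a co-receptor of semaphorins and VEGF, was at 13.1, 11.4 and 10.6 CPM in NC and 215, 163 and 96.5 CPM with shRNA3. Both were higher in every library, least in library 3. VEGFA was at 76.6, 81.7 and 75.6 CPM in NC and 276, 314 and 80.8 CPM with shRNA3, higher in libraries 1 and 2 and inside the NC range in library 3.

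Of 19 WNT genes tested 13 fell and 2 rose, with a median of -0.96 and library medians of -1.13, -1.66 and -1.19. DKK3, a member of the Dickkopf family, was at 97.8, 93.2 and 89.5 CPM in NC and no shRNA3 library held more than 3 counts, at least 475-fold lower. WNT5A, a ligand, was at 7.42, 7.63 and 9.39 CPM in NC and at least 41.4-fold lower. WNT4, another ligand, was at 10.7, 8.77 and 11.9 CPM in NC and 0.890, 0.437 and 0.745 CPM with shRNA3. These 3 were near unread in every shRNA3 library. LGR4, a receptor that enhances WNT signalling, was at 94.0, 84.6 and 99.3 CPM in NC and 25.9, 23.5 and 38.4 CPM with shRNA3. AXIN2, a target gene, was at 0.707, 0.542 and 0.660 CPM in NC and 0.0742, 0 and 0.248 CPM with shRNA3. Both fell, AXIN2 not without shRNA3 library 1 (adjusted p = 0.0575). LEF1, a transcription factor of the pathway, was at 1.82, 2.07 and 2.89 CPM in NC and 4.97, 6.27 and 20.6 CPM with shRNA3. WNT10B was at 0.202, 0.148 and 0.203 CPM in NC and 10.2, 6.41 and 22.6 CPM with shRNA3. LEF1 and WNT10B were the 2 members that rose, most in library 3.

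YAP and TEAD target genes fell in 9 of 15 and rose in 4, with medians of -0.58, -0.80 and -2.02 in libraries 1, 2 and 3. CCN2 (CTGF) was at 78.2, 74.9 and 62.4 CPM in NC and 8.68, 10.4 and 0.745 CPM with shRNA3. CCN1 (CYR61) was at 946, 913 and 815 CPM in NC and 935, 934 and 33.7 CPM with shRNA3. Library 3 was lowest in both, and CCN1 of libraries 1 and 2 lay inside the NC range. Of 17 Notch genes 8 rose and 4 fell, with library medians of 0.63, 0.54 and -0.14. NOTCH3 was at 301, 247 and 268 CPM in NC and 0.890, 0.583 and 0.944 CPM with shRNA3, 331-fold lower. NOTCH1 was at 103, 89.7 and 86.1 CPM in NC and 266, 225 and 201 CPM with shRNA3, 2.48-fold higher. The 2 receptors moved in opposite directions in all 3 libraries. HEYL, a Notch target, was at 8.53, 8.72 and 6.14 CPM in NC and had 0 counts with shRNA3, at least 39.6-fold lower. HEY1, of the same family, was at 3.79, 3.20 and 3.25 CPM in NC and 17.9, 20.99 and 21.5 CPM with shRNA3, higher in each library.

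Cell cycle genes rose in large part, and none of those listed fell in the group. Of 22 S phase and replication genes 16 rose, with medians of 1.17, 1.19 and 1.52 in libraries 1, 2 and 3. Library 3 alone called 21 of them higher. Here library 3 had the higher median. MCM2, of the replicative helicase, was at 123, 135 and 112 CPM in NC and 412, 378 and 478 CPM with shRNA3. RRM2, of ribonucleotide reductase, was at 78.3, 94.2 and 73.8 CPM in NC and 456, 450.3 and 378 CPM with shRNA3. CCNE2 (cyclin E2) was at 2.17, 2.91 and 2.74 CPM in NC and 5.34, 6.12 and 29.7 CPM with shRNA3. All 3 were higher in each library, and CCNE2 most in library 3. Of 28 G2/M genes 21 rose, with medians of 1.24, 1.15 and 0.80. CCNA2 (cyclin A2) was at 31.9, 29.4 and 29.9 CPM in NC and 275, 251 and 142 CPM with shRNA3. AURKB, a mitotic kinase, was at 40.7, 38.8 and 36.4 CPM in NC and 269, 241 and 113 CPM with shRNA3. Both were higher in each library, least in library 3. MKI67, the proliferation marker, was at 216, 192 and 177 CPM in NC and 232, 193 and 334 CPM with shRNA3 and did not pass (adjusted p = 0.138), except without shRNA3 library 2 (0.0273).

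Canonical histone genes are transcribed in S phase, and 10 of 11 tested rose and 0 fell, on a list that includes the replication-independent H1-10. The median was 2.99, or 2.46 with H3C2, unread in NC, put at its lower bound. Library medians were 3.16, 3.46 and 1.66, and library 3 alone called 5 of 11 higher, against 10 in library 1 and 10 in library 2. H1-2, a linker histone, was at 13.2, 14.7 and 13.0 CPM in NC and 122, 150.3 and 57.0 CPM with shRNA3. H2BC12 was at 12.02, 11.97 and 9.23 CPM in NC and 144, 137 and 96.7 CPM with shRNA3. H2BC21 was at 12.02, 7.44 and 9.18 CPM in NC and 113, 110.1 and 4.57 CPM with shRNA3. H1-2 and H2BC12 were higher in all 3 libraries, whereas H2BC21 was higher in libraries 1 and 2 and below NC in library 3. H2BC21 was not called without NC library 2 or 3 (adjusted p = 0.0693 and 0.0608). Most canonical histone transcripts lack a poly(A) tail, and the labels do not say how messenger RNA was selected. Of 18 p53 targets 9 rose and 4 fell, with library medians of 0.32, 0.42 and 0.57. CDKN1A (p21), a cell cycle inhibitor, was at 107, 106 and 98.2 CPM in NC and 444, 506 and 174 CPM with shRNA3. BBC3 (PUMA), which promotes apoptosis, was at 18.4, 16.3 and 14.6 CPM in NC and 156, 157 and 28.9 CPM with shRNA3. Both were higher in each library. GADD45A, of the DNA damage response, was at 105, 101 and 85.0 CPM in NC and 368, 389 and 43.6 CPM with shRNA3, below NC in library 3. Its call was lost without any single NC or shRNA3 library other than shRNA3 library 3 (adjusted p from 0.0855 to 0.119). FDXR (ferredoxin reductase) was at 52.8, 65.4 and 56.6 CPM in NC and 18.4, 19.9 and 16.6 CPM with shRNA3, lower in all 3.

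Of 16 antigen presentation genes 12 fell and 1 rose, with medians of -0.78, -0.75 and -1.49 in libraries 1, 2 and 3, and library 3 alone called 15 lower and 1 higher. HLA-B was at 2079, 1936 and 2262 CPM in NC and 541, 555 and 238 CPM with shRNA3, 4.71-fold lower (adjusted p = 0.000171). It was lowest in library 3, and since HLA genes share sequence their counts are uncertain to that extent. ERAP2, a peptide-trimming enzyme, was at 119.6, 109.6 and 126 CPM in NC and 5.04, 4.59 and 5.71 CPM with shRNA3. CD274 (PD-L1) was at 19.7, 17.5 and 18.8 CPM in NC and 1.33, 1.38 and 1.39 CPM with shRNA3. PSMB9, of the immunoproteasome, was at 132, 134 and 134 CPM in NC and 28.1, 30.6 and 20.01 CPM with shRNA3. These 3 fell to a like level in the 3 libraries. Of 26 interferon response genes 7 rose and 11 fell, with library medians of -0.60, -0.73 and -0.34. Library 3 alone called 2 higher and 11 lower, against 9 and 13 in library 1 and 9 and 15 in library 2. MX1, an antiviral GTPase, was at 44.4, 43.8 and 39.0 CPM in NC and 0.964, 2.33 and 4.12 CPM with shRNA3, lower throughout. ISG15, a ubiquitin-like protein, was at 148, 165 and 131 CPM in NC and 418, 434 and 191 CPM with shRNA3. BST2 (tetherin) was at 73.8, 76.7 and 89.2 CPM in NC and 289, 294 and 125 CPM with shRNA3. These 2 rose, so the list did not move as one.

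Of 18 cytokines and chemokines 8 fell and 4 rose, with library medians of -0.34, -0.79 and -1.42, and library 3 alone called 11 lower and 2 higher. CXCL8 (interleukin 8) was at 27.4, 33.4 and 31.5 CPM in NC and 1.56, 1.46 and 1.89 CPM with shRNA3. CCL2 was at 29.4, 40.2 and 30.7 CPM in NC and 0.371, 0.364 and 0 CPM with shRNA3. TNF was at 16.4, 28.5 and 22.3 CPM in NC and 1.78, 1.38 and 0.0497 CPM with shRNA3. All 3 were lower in every library. IL1B was at 105, 116 and 119.9 CPM in NC and 458, 378 and 37.8 CPM with shRNA3 and did not pass in the group (adjusted p = 0.0759). It lay above NC in libraries 1 and 2 and below it in library 3, and was called without library 3 (adjusted p = 9.06e-08). IL24 was at 2.27, 2.27 and 2.13 CPM in NC and 98.6, 118 and 9.29 CPM with shRNA3. CCL5 was at 0.505, 0.246 and 0.457 CPM in NC and 38.8, 40.2 and 23.8 CPM with shRNA3. Both rose, least in library 3. Of 11 antimicrobial and acute phase genes 7 fell and 3 rose, with library medians of -3.87, -3.49 and -4.43. WFDC2 was at 218, 201 and 231 CPM in NC and had 0 counts with shRNA3, at least 1103-fold lower. S100A9, of calprotectin, was at 209, 249.7 and 261 CPM in NC and 11.6, 11.5 and 5.96 CPM with shRNA3. LCN2 (lipocalin 2) was at 330.3, 267 and 229 CPM in NC and 30.9, 28.5 and 12.8 CPM with shRNA3. These genes were lowest or absent in library 3. SLPI, a protease inhibitor of mucosal secretions, was at 39.4, 33.6 and 31.1 CPM in NC and 602, 619.6 and 263 CPM with shRNA3. S100P had no more than 1 count in any NC library and 359.9, 422 and 108 CPM with shRNA3. Both rose.

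Sterol genes rose, mainly in libraries 1 and 2. Of 20 genes of cholesterol synthesis and uptake 14 rose and 1 fell, with medians of 1.42, 1.20 and 0.34. Libraries 1 and 2 each called 16 higher and 1 lower, and library 3 called 9 and 4. Library 3 thus shared the rise in part. HMGCS1, the synthase at the entry to the pathway, was at 34.4, 33.6 and 35.5 CPM in NC and 376, 345 and 65.2 CPM with shRNA3. It was higher in each library, least in library 3. INSIG1, a sterol sensor, was at 25.6, 19.9 and 23.03 CPM in NC and 386, 358 and 28.4 CPM with shRNA3. FDFT1, squalene synthase, was at 137, 121 and 120.4 CPM in NC and 953, 864 and 103 CPM with shRNA3. For INSIG1 library 3 was just above NC, and for FDFT1 below it.

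Of 30 glycolysis and hypoxia genes 16 rose and 3 fell, with library medians of 0.76, 0.87 and 0.28. Library 3 alone called 13 higher and 8 lower, against 19 and 5 in library 1 and 20 and 2 in library 2. SLC2A3 (GLUT3), a glucose transporter, had no more than 4 counts in any NC library and stood at 627, 580.4 and 113 CPM with shRNA3. PGK1, a glycolytic kinase, was at 463, 561 and 499 CPM in NC and 1631, 1652 and 1073 CPM with shRNA3. NDRG1, a gene raised by hypoxia, was at 147, 147 and 151 CPM in NC and 1672, 1721 and 347 CPM with shRNA3. These 3 were above NC in each library, least in library 3. CA9 (carbonic anhydrase IX), a hypoxia marker, was at 8.58, 13.9 and 15.4 CPM in NC and 52.9, 50.8 and 11.7 CPM with shRNA3. LDHA, lactate dehydrogenase, was at 680.3, 887 and 792 CPM in NC and 935, 938 and 1213 CPM with shRNA3 and did not pass (adjusted p = 0.144). In library 3 CA9 was inside the NC range, and CA9 was not called without NC library 1 (adjusted p = 0.0602).

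Stress chaperones of the cytosol rose in 9 of 14, and none fell in the group, with library medians of 0.82, 0.87 and 0.60. HSPA1A, an inducible HSP70 with the near copy HSPA1B, was at 418, 416 and 399 CPM in NC and 1775, 1935 and 705 CPM with shRNA3. HSPA8, the constitutive form, was at 377, 415 and 345 CPM in NC and 704, 820.3 and 1149 CPM with shRNA3. HSPA1A was highest in libraries 1 and 2 and HSPA8 in library 3. Of 17 NRF2 targets 5 rose and 5 fell, with library medians of -0.18, -0.06 and 0.08. NQO1, a quinone reductase, was at 61.8, 67.2 and 63.0 CPM in NC and 127, 129 and 180.4 CPM with shRNA3. SRXN1 (sulfiredoxin) was at 245, 239 and 211 CPM in NC and 31.9, 24.9 and 103 CPM with shRNA3. The first rose and the second fell, SRXN1 least in library 3. Of 17 genes of the ATF4 response 5 rose and 3 fell, with library medians of 0.04, 0.14 and 0.08. DDIT4, an inhibitor of mTORC1, was at 122, 155 and 123 CPM in NC and 1025, 1042 and 574 CPM with shRNA3. ASNS, asparagine synthetase, was at 104, 54.3 and 81.6 CPM in NC and 32.6, 42.0 and 18.1 CPM with shRNA3. DDIT4 rose and ASNS fell. Metallothioneins bind zinc and copper, and as close copies may share reads. MT2A was at 2579.9, 4089 and 4294 CPM in NC and 1205, 1321 and 1101 CPM with shRNA3. MT1E was at 454, 849 and 986 CPM in NC and no shRNA3 library held more than 2 counts, at least 3879-fold lower. MT1F was at 14.8, 15.8 and 14.8 CPM in NC and 25.6, 30.5 and 25.3 CPM with shRNA3. MT2A and MT1E fell and MT1F rose. MT1F was not called without any one of the NC libraries or without shRNA3 library 2 (adjusted p from 0.069 to 0.09), nor ASNS without NC or shRNA3 library 1 (0.0782 and 0.0512).

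Chaperones of the endoplasmic reticulum (ER) set library 3 against the others. These genes fold secreted proteins and rise in the unfolded protein response, through a promoter element bound by NF-Y and ATF6. Of 14 tested, 1 rose and 3 fell in the group. Library 1 called 4 higher and 3 lower, library 2 4 and 3, and library 3 1 and 9, the medians being 0.02, -0.08 and -0.90. HSPA5 (BiP), the main HSP70 of the ER, was at 1687, 1390.2 and 1449.7 CPM in NC libraries 1, 2 and 3 and 3765, 3786 and 509.8 CPM in shRNA3 libraries 1, 2 and 3. Libraries 1 and 2 were above NC and library 3 below it, and the group did not pass (adjusted p = 0.191) unless library 3 was left out (2.59e-08). HSP90B1, the HSP90 of the ER, was at 987, 972 and 1108 CPM in NC and 1634, 1594 and 551 CPM with shRNA3. Its libraries stood to NC as for HSPA5. It was not called in the group unless library 3 was left out (adjusted p = 8.65e-06). PDIA6, a disulfide isomerase, was at 387, 385 and 403 CPM in NC and 369, 352 and 208 CPM with shRNA3. CALR (calreticulin) was at 1318, 1378 and 1388 CPM in NC and 889.5, 905 and 475 CPM with shRNA3. Library 3 was lowest in both, and in the group CALR was called and PDIA6 was not.

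The promoters of these 4 genes are shown because each holds the published ER stress element, CCAATNNNNNNNNNCCACG in these letters, on either strand. The 250 bases before the start site come from RefSeq on GRCh38.p14, 5′ to 3′ on the gene's strand, with matches in capitals. They lie at chr9:125241344-125241593 (HSPA5, minus strand), chr12:103930160-103930409 (HSP90B1, plus), chr19:12938359-12938608 (CALR, plus) and chr2:10812786-10813035 (PDIA6, minus).
HSPA5: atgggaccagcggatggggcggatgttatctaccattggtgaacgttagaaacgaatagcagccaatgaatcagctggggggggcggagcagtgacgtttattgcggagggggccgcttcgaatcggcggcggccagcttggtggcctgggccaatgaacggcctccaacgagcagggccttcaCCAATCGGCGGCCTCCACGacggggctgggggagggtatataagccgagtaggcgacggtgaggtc
HSP90B1: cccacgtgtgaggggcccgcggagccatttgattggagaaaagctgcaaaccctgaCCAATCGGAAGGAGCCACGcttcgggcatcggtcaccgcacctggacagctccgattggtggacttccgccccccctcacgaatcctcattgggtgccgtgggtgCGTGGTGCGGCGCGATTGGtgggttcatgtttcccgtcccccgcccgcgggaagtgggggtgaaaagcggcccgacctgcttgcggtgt
CALR: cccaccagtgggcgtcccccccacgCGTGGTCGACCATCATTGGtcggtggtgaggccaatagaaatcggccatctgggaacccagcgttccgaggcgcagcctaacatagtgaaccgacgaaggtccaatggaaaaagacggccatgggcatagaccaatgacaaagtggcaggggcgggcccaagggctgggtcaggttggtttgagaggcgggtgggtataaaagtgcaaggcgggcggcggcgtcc
PDIA6: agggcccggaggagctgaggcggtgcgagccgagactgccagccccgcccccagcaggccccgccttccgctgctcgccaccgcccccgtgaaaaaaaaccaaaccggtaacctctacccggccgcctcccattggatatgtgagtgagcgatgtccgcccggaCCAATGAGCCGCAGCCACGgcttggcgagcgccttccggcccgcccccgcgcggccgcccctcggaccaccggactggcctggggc
HSPA5 and PDIA6 hold 1 match on the strand shown, CALR 1 on the opposite strand, and HSP90B1 1 on each. Of 13 list genes found in the RefSeq table, 7 held the motif in this window (53.8%), against 26 of all 35116 promoters (0.074%). The first share counts genes with a match in any of their promoters. The second counts promoters, those of the list included, so the shares have unlike units and no enrichment was tested. Genes of this class are known to rise through the element, as stated above, so the gap is not a result of these data. A match is a description of the letters in the window. The 4 genes shown were lowest in library 3, at log2 changes of -1.57, -0.89, -1.52 and -0.91 against NC, and were chosen with these values known. The other 3 holders of the motif did not all share this order. CANX (calnexin) was at log2 changes of -0.06, -0.13 and -0.36 in libraries 1, 2 and 3, XBP1, a transcription factor of the response, at 0.10, 0.02 and -0.46, and CRELD2 at -0.66, -0.50 and -0.31, so that CRELD2 was least below NC in library 3. CRELD2 was called in the group (adjusted p = 0.00786), though not without shRNA3 library 1 (0.0657), and CANX and XBP1 were not (0.358 and 0.674).

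Genes of translation and respiration also differed between the libraries. Of 30 cytosolic ribosomal protein genes 12 rose and 2 fell in the group. Libraries 1 and 2 each called 27 higher and 2 lower, and library 3 called 6 and 13, with medians of 0.62, 0.69 and -0.20. Library 3 thus went the other way in most of its calls. RPLP0, of the ribosomal stalk, was at 1792, 1812 and 1763 CPM in NC and 3105, 3049 and 1628 CPM with shRNA3. RPS3, of the small subunit, was at 2350.0, 2516 and 2359 CPM in NC and 1427, 1513 and 715 CPM with shRNA3. RPLP0 of library 3 was just below NC and the gene was not called (adjusted p = 0.0523, or 2.62e-07 without library 3), and RPS3 was lower throughout. Of 26 nuclear-encoded respiratory chain genes 10 rose and 1 fell, the median of 0.18 turning to -0.17 with raw totals and the library medians being 0.30, 0.39 and 0.09. None of 13 mitochondrially encoded genes rose and 2 fell, with medians of -0.72, -0.60 and 0.00 in libraries 1, 2 and 3. MT-CYB (cytochrome b) was at 630.0, 956 and 836 CPM in NC and 152, 141 and 808 CPM with shRNA3. It was lower in libraries 1 and 2 and inside the NC range in library 3, and was called only without library 3 (adjusted p = 1.47e-09 against 0.0927). Of 15 long non-coding RNAs 4 rose and 0 fell, with library medians of 0.47, 0.18 and -0.48. MALAT1, a nuclear RNA, was at 271, 259.8 and 544 CPM in NC and 1099, 1022 and 191 CPM with shRNA3. NEAT1, the RNA of paraspeckles, was at 938, 1422 and 1483 CPM in NC and 1108, 1151 and 254 CPM with shRNA3. Library 3 was below every NC library in both. Neither was called in the group, and MALAT1 was called higher without shRNA3 library 3 (log2 1.56, adjusted p = 0.00143). The 4 that rose were H19, SNHG15, SNHG1 and GAS5.

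Genes often taken as references were not level. Of 15, 10 rose and 0 fell, with a median of 0.92 and library medians of 0.91, 0.87 and 0.68. ACTB was at 3527, 3448 and 2863 CPM in NC and 8496, 8232 and 5535 CPM with shRNA3, 2.26-fold higher. PPIA was at 591, 728 and 637 CPM in NC and 2637, 2754 and 1689.7 CPM with shRNA3, 3.62-fold higher. GAPDH was at 3033, 3635 and 3336 CPM in NC and 6159.5, 6420.4 and 3890.1 CPM with shRNA3, 1.65-fold higher. All 3 were above NC in each shRNA3 library. TBP was at 19.7, 16.5 and 16.9 CPM in NC and 16.5, 14.6 and 22.5 CPM with shRNA3 and did not pass (adjusted p = 0.951). Another scaling shifts all genes: the median log2 change of all tested genes was -0.03 with TMM and with DESeq2 size factors, -0.14 with upper-quartile factors and -0.35 with raw library totals. By counts per kilobase of exon, the most abundant genes of shRNA3 were FTH1, TMSB10, H19, MT-RNR2, MT-CO1 and FTL. On that scale H19 stood at 1.15, 1.68 and 1.66 CPM per kilobase in NC and at 4839.7, 4812 and 2268 with shRNA3.

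Markers of other cell types were read in the same way. Squamous markers were present in both groups, their summed level running from 2919.6 to 3115 CPM in NC and from 2234 to 4793 CPM in shRNA3, with 5 of 10 higher and 4 lower. All 6 tested glandular and simple epithelium markers of 10 listed rose, with library medians of 2.51, 2.63 and 2.51. Their sum was 1431 to 1549 CPM in NC and 4419 to 7344 CPM in shRNA3. KRT7, KRT8, KRT18 and KRT19 were among the markers that rose, while KRT20 and CDX2 did not pass the filter. Of 10 fibroblast markers 4 were tested, 3 fell and 0 rose. The library medians were -5.99, -4.60 and -5.72. The group median of -5.64 became -3.21 with unread genes put at their bounds. The sum of these markers was 56.9 to 59.9 CPM in NC and 33.1 to 86.7 CPM in shRNA3, mostly COL1A1. COL1A1 was not called in the group, but was called higher without shRNA3 library 3 (log2 0.99, adjusted p = 2.4e-06). POSTN had 0 counts in all 6 libraries and DCN and PDGFRA did not pass the filter. Of 10 leukocyte markers 4 were tested, 2 rose and 2 fell, with library medians of 0.06, -0.99 and -0.46. Their sums were 63.9 to 81.1 CPM in NC and 121 to 243 CPM in shRNA3. CD68, a lysosomal protein also made outside leukocytes, carried this at 71.9, 53.7 and 63.9 CPM in NC and 235, 229 and 108 CPM with shRNA3. MS4A1 had 0 counts throughout, and PTPRC and CD3E did not pass the filter. Of 10 endothelial markers 4 were tested, 2 rose and 2 fell, with library medians of -0.83, 0.48 and 0.49. The sums were 18.4 to 24.1 CPM in NC and 12.01 to 16.2 CPM in shRNA3. Of 10 melanocyte markers 3 were tested, 0 rose and 2 fell, with library medians of -3.84, -2.48 and -1.84. The sums were 18.1 to 19.64 CPM in NC and 6.11 to 10.9 CPM in shRNA3. Of 10 neural markers 5 were tested, 1 rose and 2 fell, with library medians of 0.07, 0.09 and -0.62. The sums were 79.5 to 93.3 CPM in NC and 143 to 181 CPM in shRNA3. TH (tyrosine hydroxylase) was unread in NC (0 counts) and at 70.1, 70.0 and 34.6 CPM with shRNA3, at least 387-fold higher. The part of these levels in the results above was not tested.

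Against the mean of shRNA1 and shRNA2, 4334 genes (24.7%) differed with shRNA3 by the same edgeR test, 3101 higher (17.7%) and 1233 lower (7.03%). This count depends on the unlike libraries. It was 455, 462 and 11591 without shRNA3 library 1, 2 or 3, and 99 with library 3 as the only shRNA3 library. Without an shRNA2 library it was 2413, 2320 or 2683, without shRNA1 library 2 it was 2682, and 1942 with the NC libraries left out of the fit. The genes below were therefore taken from those in which each shRNA3 library lay beyond every shRNA1 and shRNA2 library.

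Higher with shRNA3 than with the other hairpins were alkaline phosphatases, a metallothionein, an amino acid enzyme and a repressor. ALPP was at 202, 204 and 230.2 CPM in shRNA3 libraries 1, 2 and 3 and at 70.7 to 112 CPM over the 6 shRNA1 and shRNA2 libraries (2.20-fold, adjusted p = 0.0061). Its copy ALPG was at 25.8, 28.9 and 9.39 CPM against 1.75 to 6.17 CPM. MT1F, at 25.6, 30.5 and 25.3 CPM, compared with 1.75 to 8.70 CPM. In these 3, as the choice of the genes required, every shRNA3 library was above every library of the other hairpins. ASNS was at 32.6, 42.0 and 18.1 CPM with shRNA3, 4.16 to 13.1 CPM with the others and 104, 54.3 and 81.6 CPM in NC. Its level thus lay between NC and the other hairpins. HES7, a repressor of the Hairy and Enhancer of split family, was at 60.0, 69.7 and 49.4 CPM against 18.6 to 29.3 CPM. Adjusted p-values of the 5 ran from 0.0061 to 0.00885, and the call of ASNS was lost without shRNA3 library 2 (0.0521).

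Lower with shRNA3 than with the other hairpins were 6 further genes. P3H2, a collagen prolyl hydroxylase, was at 109, 108 and 114 CPM in NC and 3.26, 4.01 and 3.72 CPM with shRNA3, against 8.66 to 26.4 CPM with shRNA1 and shRNA2. SEMA3C, a secreted semaphorin, was at 33.6, 29.9 and 34.2 CPM in NC and 3.41, 2.48 and 2.68 CPM with shRNA3, against 6.32 to 23.3 CPM. These 2 were below NC with every hairpin and lowest with shRNA3. MFAP5, a microfibril protein, was at 10.9, 9.40 and 10.1 CPM against 18.2 to 72.1 CPM, and no NC library held more than 4 counts of it. MYPN (myopalladin) was at 0.808, 0.788 and 1.47 CPM in NC and 22.9, 26.6 and 28.8 CPM with shRNA3, against 39.9 to 116 CPM. TMEM52B was at 0.757, 0.492 and 0.761 CPM in NC and 0.667, 0.947 and 3.97 CPM with shRNA3, against 4.68 to 18.5 CPM. MFAP5 and MYPN were above NC with shRNA3, and farther above it with the other hairpins, while TMEM52B was clearly above NC only in library 3. AOX1, aldehyde oxidase, was at 6.06, 4.58 and 3.15 CPM in NC and 6.08, 6.49 and 5.07 CPM with shRNA3, against 13.3 to 19.9 CPM, and it was not called against NC (adjusted p = 0.277). Adjusted p-values of the difference from shRNA1 and shRNA2 ran from 0.00651 to 0.0119. Without shRNA3 library 1 the calls of MFAP5, P3H2 and TMEM52B were lost (0.0525 to 0.0549), and without library 2 those of MFAP5, SEMA3C and TMEM52B (0.0581 to 0.065).

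EGFR was at 225 to 338 CPM with shRNA1 and shRNA2, so that shRNA3 libraries 1 and 2 lay below that range and library 3 inside it. The difference was -0.72 on the log2 scale (SE 0.22, adjusted p = 0.0393). This call was lost when any single shRNA1, shRNA2 or shRNA3 library other than shRNA3 library 3 was left out (adjusted p from 0.0623 to 0.196). List counts against the other hairpins are to be read against the 17.7% of all tested genes that were higher and the 7.03% that were lower. Of 17 immediate early genes 11 were higher than with the other hairpins and 1 lower. Of 14 ER chaperones 7 were higher and 0 lower. Of 15 long non-coding RNAs 13 were higher and 0 lower. In these 3 lists the median against NC was lower in library 3 than in libraries 1 and 2. Of 17 genes of the ATF4 response 10 were higher and 2 lower. These are not the only lists with many higher members. Higher were also 8 of 11 antimicrobial and acute phase genes, 9 of 14 tight junction genes and 10 of 16 antigen presentation genes. Of 22 S phase genes 1 was higher and 1 lower.

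The genes most unlike between shRNA3 libraries are given as a description, since they were chosen for that difference. Library 3 stood highest above libraries 1 and 2 in HPS6, PRMT6, FADD, TMEM177, TTPAL and RIPK1. HPS6, of lysosome-related organelle biogenesis, was at 31.4, 36.7 and 32.1 CPM in NC and 1.04, 0.292 and 46.6 CPM with shRNA3, and at 41.8 to 66.6 CPM with shRNA1 and shRNA2. PRMT6, an arginine methyltransferase, was at 17.4, 27.4 and 17.8 CPM in NC and 0.371, 0.219 and 30.9 CPM with shRNA3. FADD, the adaptor of death receptors, was at 45.3, 52.0 and 48.6 CPM in NC and 2.52, 2.62 and 53.3 CPM with shRNA3. In each of these, library 3 was above every NC library and libraries 1 and 2 were far below. RIPK1, a kinase of the same complexes as FADD, was at 18.03, 21.1 and 17.2 CPM in NC and 4.15, 3.72 and 69.0 CPM with shRNA3. TMEM177 was at 16.5, 19.9 and 15.1 CPM in NC and 1.19, 0.729 and 30.1 CPM with shRNA3. TTPAL was at 54.3, 50.6 and 48.9 CPM in NC and 3.04, 3.50 and 62.1 CPM with shRNA3. These 3 also set library 3 far above the other shRNA3 libraries.

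Library 3 stood lowest below libraries 1 and 2 in TMEM265, PER1, KLF3-AS1, SLC2A14, NR1D1 and TSC22D3. PER1, a repressor of the circadian clock, was at 65.6, 48.5 and 58.1 CPM in NC and 886, 806 and 11.4 CPM with shRNA3, and at 8.26 to 29.1 CPM with shRNA1 and shRNA2. NR1D1, another such repressor, was at 13.2, 12.5 and 12.6 CPM in NC and 1189, 1025 and 20.3 CPM with shRNA3, and at 21.2 to 41.4 CPM with shRNA1 and shRNA2. TSC22D3 (GILZ), a glucocorticoid-induced leucine zipper protein, was at 22.3, 15.8 and 19.1 CPM in NC and 913, 759 and 15.8 CPM with shRNA3, and at 7.54 to 17.0 CPM with shRNA1 and shRNA2. For the 3 genes, libraries 1 and 2 were far above NC and above every library of the other hairpins. Library 3 was below NC for PER1, above it for NR1D1 and at its lower edge for TSC22D3. TMEM265 was at 35.6, 33.7 and 29.02 CPM in NC and 137, 155 and 0 CPM with shRNA3, and had 0 counts with shRNA1 and shRNA2. SLC2A14, a near copy of SLC2A3, was at 0.404, 0.739 and 0.660 CPM in NC and 132, 120.0 and 1.34 CPM with shRNA3. KLF3-AS1, an antisense RNA, was at 0.707, 1.67 and 1.88 CPM in NC and 114, 154 and 0.844 CPM with shRNA3. In these, too, libraries 1 and 2 were above every NC library and far above library 3.

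**Figure D4:**
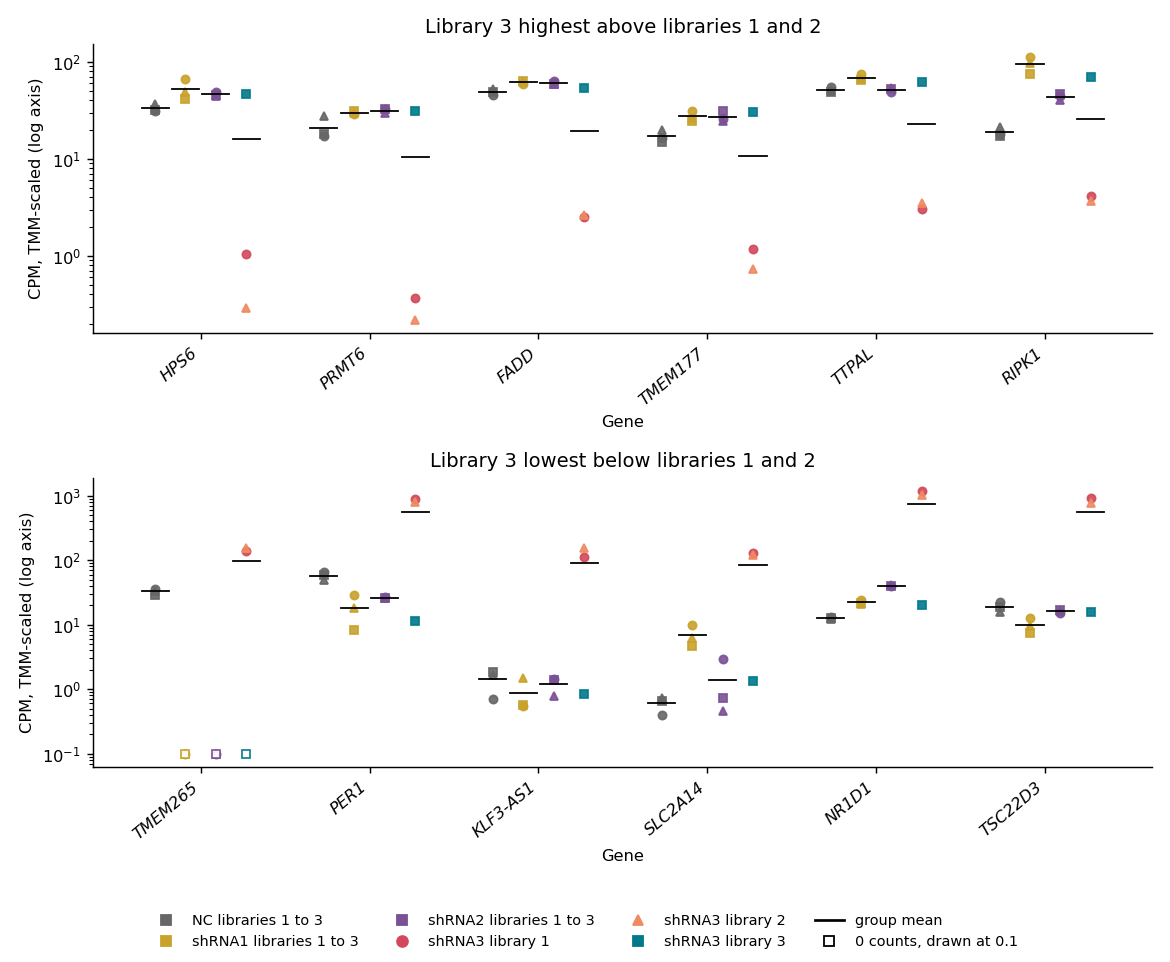
CPM on a log axis, by group, of the 6 genes with shRNA3 library 3 most above (top) and most below (bottom) libraries 1 and 2; points are single libraries, bars are group means and open symbols mark 0 counts drawn at 0.1. Library 3 sits within or close to the range of the shRNA1 and shRNA2 points, and libraries 1 and 2 stand apart from them.

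The difference between the libraries ran with base composition and transcript length. With genes in 5 equal bins by GC content of the longest transcript, the median log2 change against NC went from -0.44 in the lowest to 0.28 in the highest bin in library 1, and from -0.44 to 0.32 in library 2. Library 3 stayed between -0.11 and -0.02. By transcript length the medians went from 0.14 in the shortest to -0.36 in the longest bin in library 1 and from 0.27 to -0.44 in library 2, and stayed between -0.10 and 0.02 in library 3. The part of composition and length in the results above was not tested gene by gene. With each library corrected for both, 9624 genes differed from NC and 4343 from shRNA1 and shRNA2. The genes were not all the same: 8618 of the 9457 and 3372 of the 4334 called without the correction were called in the same direction with it.

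**Figure D5:**
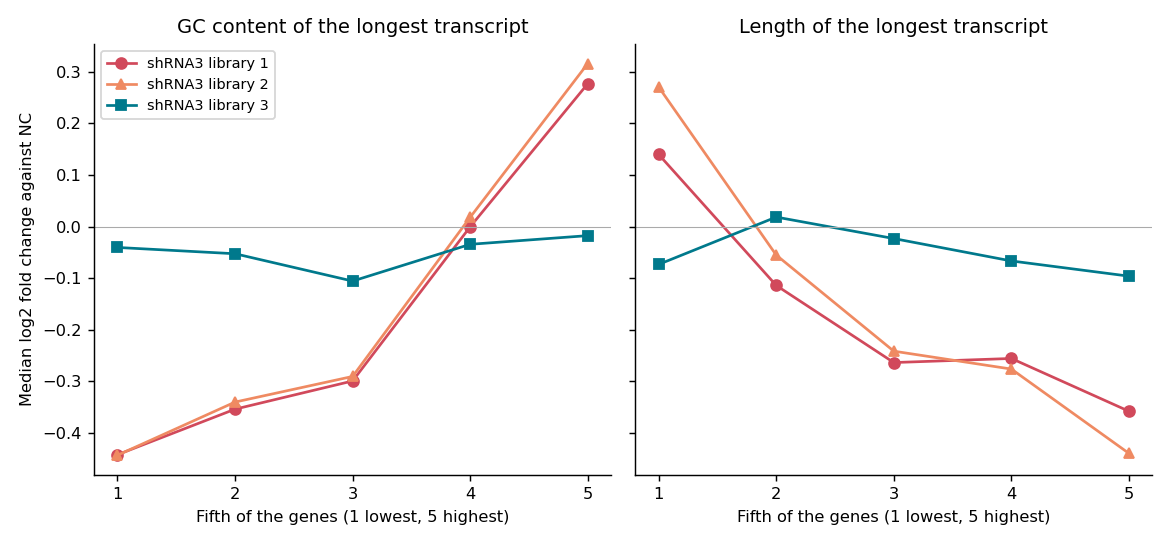
Median log2 fold change against NC in each shRNA3 library in 5 equal bins of GC content (left) and of length (right) of the longest transcript, over 17035 tested genes with a known transcript. Libraries 1 and 2 rise with GC content and fall with length, and library 3 stays near level in both plots.

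By position, chromosome medians of the log2 change ran from -0.35 (chromosome 2) to 0.47 (chromosome 4). Among runs of 25 neighbouring tested genes, chosen for their medians and so given without a test, the highest lay on chromosome 19, 52153864 to 54012669, a cluster of zinc finger genes. Its median was 6.52, and 6.38, 5.90 and 7.84 in libraries 1, 2 and 3, with 20 genes higher and 3 lower. ZNF160 and ZNF28 lie within it. The lowest lay on chromosome X, 101391011 to 106876145, with the BEX and TCEAL genes (median -2.63, 14 lower and 4 higher). Next came chromosome 3, 152834693 to 158088997 (median -2.48, 19 lower and 2 higher), and chromosome 6, 32164583 to 33192499, with the HLA class II genes (median -2.35, 16 lower and 7 higher). In each of these 4 runs the 3 libraries had medians of the same sign.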

How the data were processed

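RNA-seq libraries of SCC-15 cells were made from total RNA, 3 for NC and 3 for each of 3 hairpins against FMOD. The deposited table holds expected counts per Ensembl gene, made by the authors, for 61044 identifiers, of which 13.8% of the values are not whole. The submitters' processing notes name HISAT2, HTSeq 0.11.2 and GRCh38. The counting of strand, of reads shared by several genes and the source of the fractions are not given in the sources used here, so overlapping genes and near copies are uncertain. Columns were matched to samples by name.

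Counts were rounded to whole numbers and low genes were dropped with filterByExpr of edgeR (keeping those with at least 10 counts in enough libraries, 15 in all), which left 17532. Library totals over all 12 columns, TMM factors and a quasi-likelihood fit (edgeR 4.0.16, limma 3.58.1, R 4.3.3) with robust dispersions over the 4 groups gave shRNA3 against NC and shRNA3 against the mean of shRNA1 and shRNA2. A model with each shRNA3 library as its own group, with 6 residual degrees of freedom, gave the single-library values. P-values were adjusted by Benjamini-Hochberg over all 17532 genes, with a threshold of 0.05. The code was tested on simulated data. Totals of 17286934 to 19567192 counts leave a gene with 0 counts an upper limit of 3 counts, which covers counting error only. A fold given as at least a value is for a gene with at most 3 counts in every library of a group. It takes 3 counts per library in place of those read. Where some counts were read, as for DKK3, TGFB2 and MT1E, it bounds the counts read and leaves out their counting error.

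Symbols came with the reference tables for 17231 tested genes, and positions from the GENCODE annotation of GRCh38 for 17049 (97.2%). Named genes are 8 that rose and 8 that fell, among those called with at least 10 counts in all 6 libraries and every shRNA3 library beyond every NC library. They had the largest log2 difference from the NC mean in the shRNA3 library that changed least. To these were added the 6 highest and 6 lowest against shRNA1 and shRNA2 in which each shRNA3 library lay beyond the others, the 6 at each end of the gap between library 3 and libraries 1 and 2, up to 4 a list, list and marker genes that carry the description of a list (chosen with their values known), FMOD, EGFR and the 6 most abundant per kilobase. Some genes that the rule picks are left out of the text. The comparison, its gene lists (747 symbols, 1 unmatched) and the tests were chosen with earlier results of these data known. Alternatives were DESeq2 1.42.0 (size factors and Wald test), upper-quartile factors, other filters, fewer groups, a replicate block, each library left out, other thresholds and, chosen after seeing the data, raw totals, a correction for GC content and length and library 3 alone.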

Additional observations from a re-analysis of the deposited data

Results flagged for a closer look

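The genes that differed between shRNA3 and the mean of shRNA1 and shRNA2 come first here. Libraries labelled with different hairpins against the same gene gave different levels by a test of the difference itself. They numbered 4334, and 455, 462 or 11591 without shRNA3 library 1, 2 or 3. Library 3 carries the same hairpin label as libraries 1 and 2, so the count is not that of a difference shared by the shRNA3 libraries. The part of the hairpin in it was not tested.

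Single genes in which each shRNA3 library lay beyond every shRNA1 and shRNA2 library were chosen for that gap, and their log2 differences are these. Among the higher genes the difference was 2.33 for MT1F, 2.46 for ALPG, 1.94 for ASNS, 1.13 for ALPP and 1.35 for HES7. Among the lower genes it was -1.54 for MFAP5, -1.73 for P3H2, -1.81 for SEMA3C, -1.28 for MYPN, -2.23 for TMEM52B and -1.40 for AOX1. No group has more than 3 libraries, so no library was tested as an outlier of its group.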

How the results depend on the processing

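The 9457 genes called against NC stayed within 1.5 times of that count in every alternative run. Counts ran from 6915 with an absolute log2 change of at least 1 to 13330 without shRNA3 library 3. Leaving out 1 library gave 8314 to 13330, the highest without shRNA3 library 3. With upper-quartile factors 43.6% of the calls were higher, against 48.9%. The 4334 genes called against shRNA1 and shRNA2 depended on the setting: 1942 with only the groups compared, 99 with library 3 alone for shRNA3, 664 at an adjusted p under 0.01 and 2061 at an absolute log2 change of at least 1. Leaving out 1 library gave 455 to 11591, with 71.6% of calls higher in the full fit and 49.7% without shRNA3 library 3. Library 3 alone against NC gave 7074 genes at an absolute log2 change of at least 1. At a mean of at least 1 CPM, 458, 5861 and 5925 genes were at least 2-fold apart between libraries 1 and 2, 1 and 3, and 2 and 3. Without 1 library the log2 change against NC ran from -2.26 to 1.01 for RIPK1, with the change of sign without shRNA3 library 3. Beyond these, the 229 results for named genes under 3000 alternatives lost the call in 81 and gained it in 27, with no change of call for 182 of them. List medians moved by more than the spread of the 3 libraries in 66 of 672 alternatives. The causes of these shifts were not tested. Genes of a few counts per library are limited by depth.

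The replicate numbers did not pair the libraries: around their group means, 18 same-numbered pairs correlated at -0.0107 on average and 36 others at 0.00443, and those of NC with shRNA3 at -0.064 to 0.0546. With the number as a block, 9116 genes were called against NC (8943 of them shared with the unblocked fit) and 3563 against shRNA1 and shRNA2. Libraries 1, 2 and 3 alone gave 10742, 10954 and 9904 with the block.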
